A study of Rattus norvegicus with 9 samples.

Results

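Plasmacytoid dendritic cells (pDCs) were examined among single cells from the rat proximal tibia, 404 cells of the 114232 that passed the cell filter (0.354%). A cell counted as a pDC when it held at least 2 molecules (unique molecular identifiers, UMIs) of Siglech, at least 1 of Tcf4, at least 1 of Irf8 and at most 1 of Cd79a. The cells were thus chosen by measured values, and the levels of these 4 genes, like every contrast of the pDCs with the remaining cells, are given as a description with no test. Plasmacytoid dendritic cells are marrow-born cells of lymphoid shape. They carry Toll-like receptors in their endosomes, sense foreign nucleic acids there and are known as the body's most prolific producers of type I interferon. Their identity rests on the E-box transcription factor Tcf4 (E2-2), with Irf8, Spib and Runx2, and their growth depends on the receptor Flt3.

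The rats were Sprague-Dawley animals of 6 to 8 weeks, and every one of them carried a 3 mm circular osteotomy of the proximal tibia together with a 4 mm full-thickness skin wound on the same foot. Animals with the osteotomy alone formed the TO group, and animals whose osteotomy site also received radial extracorporeal shock waves formed the TOE group. Shock waves were given on day 2 and again on day 4, so the day 2 TOE libraries followed a single session and the day 4 TOE libraries the second one, and the number of sessions cannot be told apart from the day within TOE. Tissue was taken at the osteotomy site. The TO libraries came from day 2 at 0 h (a baseline before any shock wave), day 2 at 4 h, day 4 at 4 h and day 4 at 24 h, and the TOE libraries from day 2 at 4 h and 24 h and day 4 at 4 h and 24 h. The library of TO day 2 at 24 h was not analysed here. The design names 9 rats for 9 samples, so each condition was 1 library, and no condition had a replicate of its own. A fall in cells of a type and a fall in RNA per cell cannot be told apart in a summed level.

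Total UMIs per library ran from 95954800 to 144146202, and the summed pDC UMIs from 262419 (23 cells, TOE 4d 24h) to 786274 (66 cells, TO 4d 4h). The median pDC held 11539 UMIs and 3468 genes, against 5003 UMIs and 2091 genes over all kept cells. Scrublet, which scores cells for likeness to simulated doublets, put 2 of the 404 pDCs above a score of 0.25, against 3.28% of all kept cells. Of the pDCs, 11 shared their barcode with a cell of another library, and 0 shared it with another pDC.

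Siglech, a sialic acid binding lectin of rodent pDCs, reached a median of 16 UMIs per pDC, with 20 cells at the minimum of 2 and 352 cells at 6 or more. Just inside the limit, the 52 pDCs with 2 to 5 Siglech UMIs held Hs3st3a1 at 351 CPM (UMIs of a gene in the summed cells, scaled to a common depth) and Flt3 at 523 CPM, close to the 471 and 554 CPM of the 352 cells above them. Just outside it, 98 cells with 1 Siglech UMI met the other conditions and held Hs3st3a1 at 22.0, Flt3 at 104 and the myeloid lysozyme gene Lyz2 at 16441 CPM. The limit on Cd79a, a subunit of the B cell receptor, left out 238 cells that met the other conditions. Their median Siglech was 21 UMIs and their median Cd79a 3 UMIs, and they held Runx2 at 859, Flt3 at 396 and Cd79b at 53.4 CPM. Cd79b stood at 11.3 CPM in the pDCs and at 332 CPM in a gate of B lineage cells (Cd79a at 2 or more UMIs, no Siglech). The cells that the Cd79a limit left out numbered 16 to 25 in the libraries of the 4 h collections and 21 to 56 in the others, so the limit removed more cells in most of the 0 h and 24 h libraries. A gate of neutrophils, which do not use Cd79a, was drawn with at least 1 UMI each of Retnlg, Csf3r and Mmp8, no Siglech and at most 1 UMI of Cd79a. In that gate Cd79a stood at 28.1 CPM at 4 h and 41.5 CPM at 0 h and 24 h, levels held down by the same limit. The part of Cd79a transcripts from other cells in the count of pDCs was not tested.

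Irf8 stood at 1142 CPM in the pDCs against 47.9 CPM in all other cells and Tcf4 at 3047 against 339 CPM, levels that the rule itself set. Of the markers outside the rule, Flt3 stood at 551 against 15.96 CPM and was detected in 95.8% of pDCs. Ccr9, a gut-homing chemokine receptor, stood at 21.0 against 0.346 CPM and was detected in 18.3% of pDCs. With each cell thinned to 5000 UMIs, Ccr9 was detected in 10.3% of 359 pDCs (exact 95% interval 7.36 to 13.9), in 0% of 2400 B lineage cells and in 0.0489% of 2044 neutrophils. By library, the Ccr9 share in pDCs ran from 0% to 17.2%. Thinning left out cells with fewer than 5000 UMIs, among them 45 of the 404 pDCs. At most 300 cells per library were taken from each gate. The 2400 B lineage cells had a median of 10019 UMIs before thinning, against 4895 UMIs in the whole gate. Thinned shares here and below thus describe the cells that reached that depth. Intervals of thinned shares treat the pooled cells as the sample. They cover counting error only and not the spread between libraries. A Ccr9 transcript was thus found in a minority of these cells at this depth.

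The genes with the highest ratio of pDC level to level in all other cells were a small, recurrent group. Among the 4326 genes with at least 200 UMIs in the pDCs, 1236 were higher in the pDCs in all 8 libraries, and 102 of those by 10-fold or more. Hs3st3a1, which encodes a heparan sulfate 3-O-sulfotransferase, led with 459 against 1.72 CPM, a ratio of 266.5 that ran from 161 to 506.5 over libraries. Siglech followed at 1525 against 6.49 CPM. All other cells include the 238 cells that only the Cd79a limit left out. Those held Siglech at 1178 and Hs3st3a1 at 281 CPM, and their part in the levels of all other cells was not tested. Kmo, kynurenine 3-monooxygenase of tryptophan breakdown, stood at 162.5 against 1.56 CPM. The ADP receptor gene P2ry12 stood at 189 against 3.17 CPM, and the ubiquitin ligase gene Peli2, which acts on Toll-like receptor and interleukin-1 signalling, at 415 against 8.60 CPM. Hs3st3b1, Sla2, Elovl7, Sh3gl2, Matn2, Paqr5 and the ephrin receptor genes Ephb2 and Epha2 were also among the first 20. Hs3st3a1 and Hs3st3b1 are paralogs, and how reads were split between them is not known here.

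**Figure D1:**
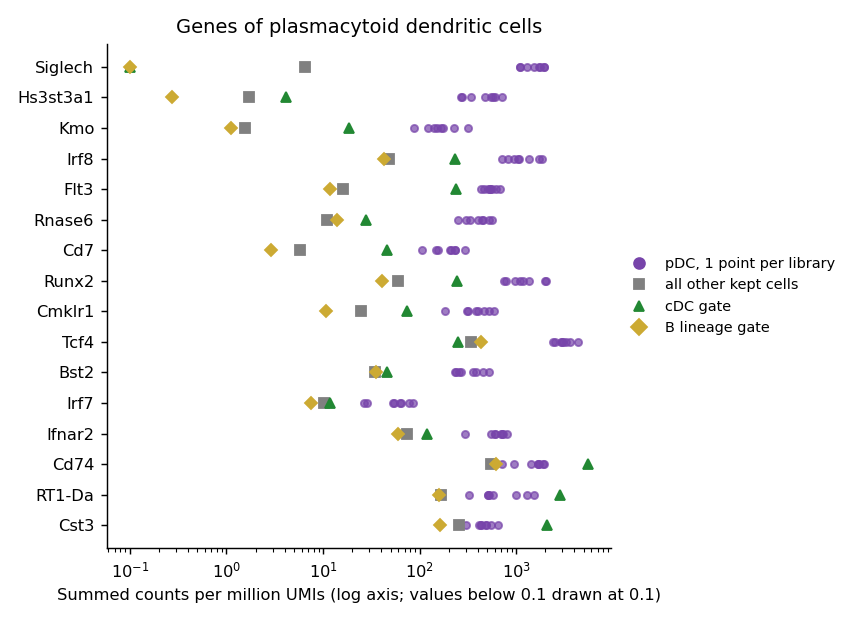
Summed levels of named genes (CPM, log axis, values below 0.1 drawn at 0.1) in the pDCs (circles, 1 per library), all other kept cells (squares), the conventional dendritic cell gate (triangles) and the B lineage gate (diamonds). Hs3st3a1 and Siglech show the widest gap between the pDCs and the remaining cells, at 459 against 1.72 CPM and 1525 against 6.49 CPM.

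The plot of summed levels sets the pDCs beside 2 gates. Conventional dendritic cells (cDCs) were taken as 434 cells without Siglech that held Flt3, at least 5 UMIs of Cd74 and a cDC marker, and the B lineage gate held 69819 cells. Genes of pDC identity other than those of the rule ran high in the pDCs. Runx2 stood at 1205 CPM (245 CPM in the cDC gate, 40.5 CPM in the B lineage gate), Rnase6 at 405 (27.9 and 14.02), Pacsin1 at 221 (10.0 and 10.9) and Cmklr1, the chemerin receptor, at 420 (74.0 and 10.8). Cd7 stood at 206.5 CPM against 45.8 and 2.89 CPM. Bst2, the tetherin that restrains virus release, stood at 329 CPM against 46.0 and 35.4 CPM. Other listed identity genes stood lower in the pDCs than in the B lineage gate, among them Spib (142 against 278 CPM), Zeb2 (532 against 1248 CPM), Ikzf1 (245 against 446 CPM), Tcf3 (25.2 against 180 CPM) and Dntt (7.73 against 27.3 CPM). Of the 40 genes on the identity list, Upb1, Klk1 and Cd300lg were at 0 in every pDC, and Cox6a2 was at 1 UMI.

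The pDCs also held transcripts that are usually read as marks of T or B lymphocytes. Cd3g stood at 204 CPM, while Cd3d was at 1 UMI and Cd3e at 3 UMIs over all 404 cells. Ptcra, the pre-T cell receptor alpha chain that human and mouse pDCs are known to transcribe, was detected in 20.3% of thinned pDCs (16.3 to 24.9) against 2.00% of B lineage cells. Xcl1, a chemokine that draws XCR1-bearing dendritic cells, was detected in 23.4% (19.1 to 28.1) against 0.417%. Cd4 was detected in 15.6% (12 to 19.8) against 1.42%, and Lag3 in 9.75% (6.89 to 13.3) against 0.167%. In neutrophils thinned in the same way, these shares were 0.342% for Ptcra, 0.294% for Xcl1, 0.734% for Cd4 and 0.196% for Lag3. All 4 shares in pDCs thus lay above those of both other cell types. Without thinning, at a median of 11978 UMIs, the shares in these pDCs were 37.0%, 32.9%, 24.8% and 16.7%, against medians of 10019 UMIs in the B lineage cells.

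Genes of nucleic acid sensing and of the interferon receptor were detected, Tlr9 in few cells, while interferon genes themselves were at or near 0 UMIs. Tlr7, which senses single-stranded RNA, was detected in 25.9% of thinned pDCs (21.5 to 30.8), against 5.12% of B lineage cells and 10.0% of neutrophils. Tlr9, which senses CpG DNA, was detected in 0.557% of thinned pDCs (0.0675 to 2.00) against 1.12% of B lineage cells and 0.0979% of neutrophils. By library, the thinned pDC shares ran from 18.6% to 73.7% for Tlr7 and from 0% to 2.33% for Tlr9. Without thinning the Tlr9 shares were 4.46%, 2.08% and 0.245%. Irf7, the master regulator of type I interferon genes, stood at 56.5 CPM against 10.1 CPM in other cells. Ifnar2, a subunit of the interferon receptor, stood at 654 against 74.7 CPM, and Unc93b1, the chaperone that brings endosomal Toll-like receptors to their compartment, at 295 against 93.5 CPM. Over the 12 listed type I and type III interferon genes and pseudogenes, the 404 pDCs held 1 UMI, of Ifnl1. For a gene with 0 UMIs, the 404 cells allow a share of up to 0.743% of cells with a UMI, a limit that covers counting error only. The 113828 other cells held 134 UMIs of the 12 genes. Interferon-stimulated genes as a list summed to 1559 CPM in the pDCs against 1276 CPM in all other cells. Within that list levels were uneven, with Psmb8, an immunoproteasome subunit, at 351 CPM and Bst2 at 329 CPM, while Isg15, Mx1 and Ifit3 held 9, 8 and 3 UMIs over all pDCs and 6 of 55 genes held 0.

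Class II genes of antigen presentation were higher in the pDCs than in the B lineage gate. Cd74, the invariant chain, stood at 1546 CPM against 611 CPM, and RT1-Da, a class II alpha chain, at 792 against 157 CPM. The cDC gate held 5593 CPM of Cd74 and 2848 CPM of RT1-Da, but it was drawn with a minimum of Cd74 and its class II levels partly restate that choice. The co-stimulatory gene Cd86 stood at 78.1 CPM, and Cd80 was at 2 UMIs over all pDCs. Per cell, class II genes varied widely. Of 5000 UMIs kept, the 10% of pDCs lowest in class II held 1 UMI or fewer, the median pDC 13 and the highest 10% at least 48, against a median of 2 in B lineage cells.

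**Figure D2:**
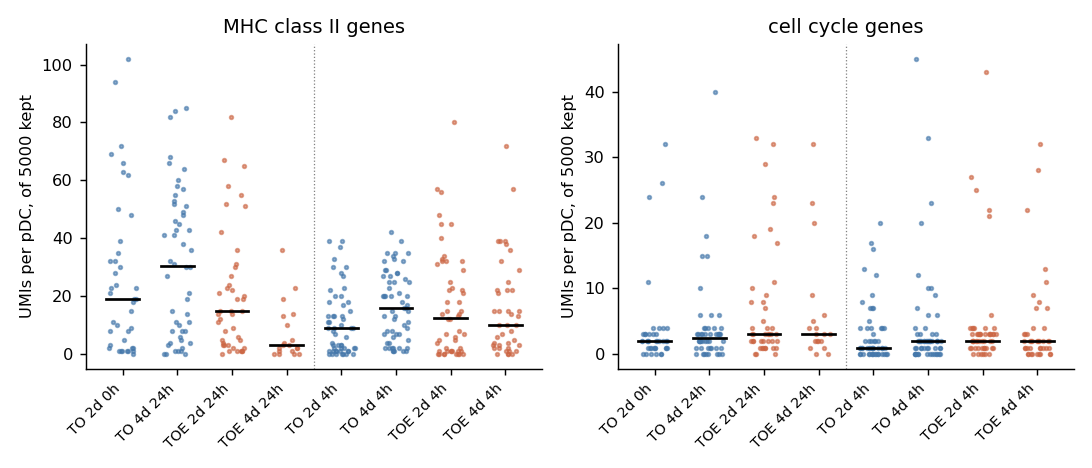
UMIs of class II genes (left) and cell cycle genes (right) per pDC after thinning to 5000 UMIs, by library, with 1 point per cell, blue for TO, orange for TOE, and black lines at the medians. The class II median was lowest in TOE 4d 24h, at 3 UMIs, and highest in TO 4d 24h, at 30.5.

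In the per-cell plot, pDCs of the same library covered a wide range of class II UMIs. Cell cycle genes were low, with a median of 2 UMIs of 5000 in the same plot. Among cells with at least 5000 UMIs, 12.5% of pDCs were at 10 or more, against 48.2% of B lineage cells and 14.8% of neutrophils. The whole B lineage gate had a median of 4895 UMIs, so its share leaves out the cells of lower depth. Mki67 was detected in 22.3% of thinned pDCs and in 25.2% of thinned neutrophils, a share no higher than in that gate. Heat shock chaperone genes reached medians of 51 (TO) and 48.5 UMIs (TOE) in the day 4 collections at 4 h, and 20 to 31 UMIs in the other libraries.

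The share of pDCs among kept cells was compared by treatment, hour and day. A share is not a number of cells, since it also moves with the other cell types in the library. On day 2 the TO libraries held 0.296% at 0 h and 0.398% at 4 h, and the TOE libraries 0.372% at 4 h and 0.346% at 24 h. On day 4 the TO libraries held 0.518% at 4 h and 0.362% at 24 h, and the TOE libraries 0.339% and 0.187% at those hours. The library TO 4d 4h was highest (exact 95% interval 0.401 to 0.659) and TOE 4d 24h lowest (0.118 to 0.280). These intervals treat the cells of 1 library as the sample and cover counting error only.

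**Figure D3:**
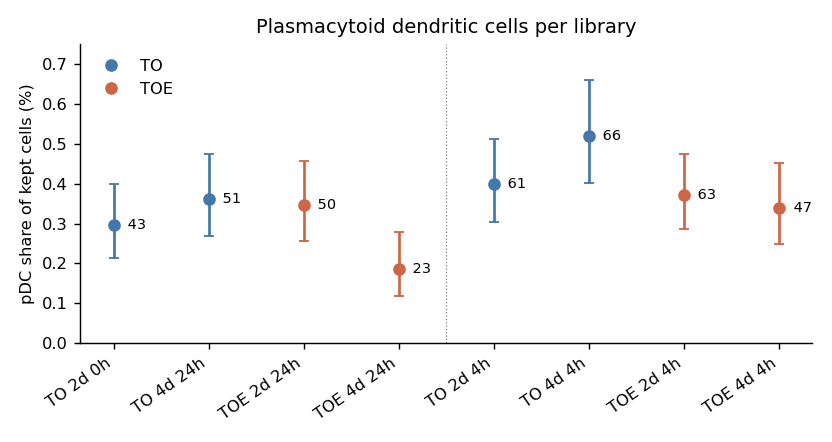
Share of pDCs among kept cells (%) in each of the 8 libraries, as points with exact 95% binomial intervals and the number of pDCs beside them, 4 h libraries on the right. TO 4d 4h was highest at 0.518% and TOE 4d 24h lowest at 0.187%.

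In the plot of shares, TOE libraries averaged 0.311% ± 0.0841 (SD, n = 4 libraries) and TO libraries 0.394% ± 0.0932, a difference of -0.0827 percentage points (2-sided exact permutation p = 0.314, smallest possible 0.0286). The 4 h libraries averaged 0.407% ± 0.0781 against 0.298% ± 0.0792 at 0 h and 24 h, a difference of 0.109 points (exact permutation p = 0.0857). Without the Cd79a limit this difference was -0.0436 points (exact permutation p = 0.629), and with cells thinned to 2000 UMIs it was -0.118 points (exact permutation p = 0.257), so its direction rested on the rule. Without TO 4d 4h the difference between TOE and TO was -0.0411 points and the hour difference 0.0720 points, and without TOE 4d 24h they were -0.0412 and 0.0721 points. Day 4 and day 2 differed by -0.00176 points (exact permutation p = 1.0). None of the 3 factors was separable from the spread between libraries.

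Within matched collections, the ratio of the TOE share to the TO share for 2d 4h was 0.934 (exact 95% interval 0.646 to 1.35). It was 0.654 for 4d 4h (0.440 to 0.966) and, for the last collection, 4d 24h, 0.516 (0.301 to 0.860). These intervals compare 1 library with another and cover counting error only. The ratio at 2d 4h changed direction with the setting, at 1.40 (0.970 to 2.03) among cells outside the B lineage gate and 1.07 (0.646 to 1.77) with cells thinned to 2000 UMIs. The ratio at 4d 4h was 0.778 (0.561 to 1.08) without the Cd79a limit, and the ratio at 4d 24h was 0.519 (0.355 to 0.748). TOE 4d 24h was also the library with the fewest total UMIs.

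Gene levels were compared by summing the pDCs of each library and fitting treatment, hour (4 h against 0 h and 24 h) and day together over 7983 genes with edgeR. The conditions themselves stood in for replicates, with 4 residual degrees of freedom. The hour of collection was shared with whatever else differed between those libraries and cannot be told apart from it. Between TOE and TO, 0 of 7983 genes passed an adjusted p of 0.05 (0%), with 388 at an unadjusted p under 0.05 and 0 by DESeq2. Between day 4 and day 2, 0 passed (0%), with 358 at an unadjusted p under 0.05 and 5 by DESeq2. Between 4 h and the other hours, 662 passed (8.29%), 393 of them higher at 4 h (4.92%) and 269 lower (3.37%), with 2165 at an unadjusted p under 0.05 and 440 by DESeq2.

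**Figure D4:**
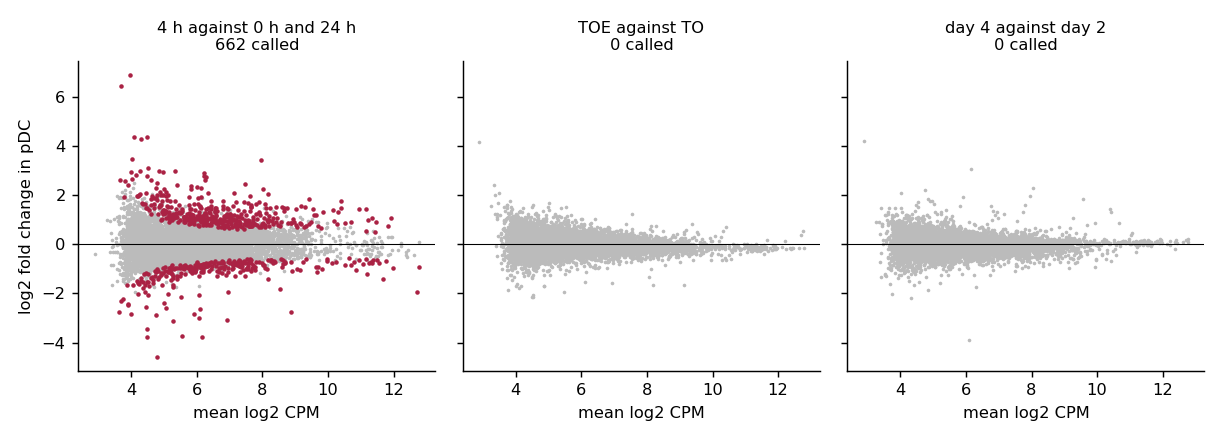
Log2 fold change in the pDCs against mean log2 CPM for hour (left), treatment and day, 1 point per gene, with genes past an adjusted p of 0.05 in red. Red points appear in the hour panel alone, 662 of them.

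The 3 panels of fold changes differ in their calls. On simulated counts with the same libraries, 94.5% of genes changed 4-fold and 41.8% of genes changed 2-fold between TOE and TO were called. The simulation gave every gene the same spread between libraries and no effect of hour or day. It thus does not show what share of real changes would be called. In the data, Tubb2b differed by -2.07 ± 0.49 on the log2 scale between TOE and TO and did not pass (edgeR adjusted p = 0.960). The call count for the hour depended on single libraries. Leaving out a TO library of 4 h gave 102 (day 2) or 121 calls (day 4), and leaving out the TO libraries of 0 h or 24 h gave 127 or 146 calls. Leaving out a TOE library of 4 h gave 283 (day 2) or 336 calls (day 4), and leaving out a TOE library of 24 h gave 525 (day 2) or 1216 calls (day 4). Of the 662 genes, 66 passed whichever library was left out, 52 higher and 14 lower at 4 h. Among the 662, 108 reached the low-count minimum (15.3 CPM in 2 libraries) only on the side where they were higher, 62 of them at 4 h and 46 at 0 h and 24 h. Such a gene had to differ to be tested at all, so those named below are given by level, or by a fitted difference as a description, with no p. Of the 6681 genes that reached the minimum on both sides, 554 passed (8.29%), 331 higher and 223 lower at 4 h.

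Jchain, the joining chain that links IgM and IgA and is a known pDC transcript, showed the clearest difference with the hour. Outside the 4 h collections its level was 857 (TO 2d 0h), 730 (TO 4d 24h), 702 (TOE 2d 24h) and 884 CPM (TOE 4d 24h). At 4 h it was 125 and 153 CPM in the TO libraries of days 2 and 4, and 116 and 76.5 CPM in the TOE libraries of the same days. The groups did not overlap, a property shared by 17.6% of the genes tested. Jchain fell by 2.77 ± 0.21 on the log2 scale at 4 h (edgeR adjusted p = 0.000251, at most 0.00522 with a library left out). In thinned cells it was detected in 33.3% to 45.5% of pDCs in the 4 h libraries and in 74.4% to 94.7% in the others. The remaining cells went from 337 CPM to 74.2 CPM as well, and neutrophils from 17.2 to 3.81 CPM. The fall in pDCs differed from that in the B lineage gate by -0.85 on the log2 scale, which was not separable from 0 (edgeR adjusted p = 0.300).

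Of the 37 genes on the pDC identity list that the rule did not use, 30 were tested, 0 rose and 3 fell at 4 h (Tyrobp, Ctsl and Smim5), with a median log2 change of 0.17 beside 0.00 for all genes. This and the list counts below stand beside 4.92% of all genes tested that rose and 3.37% that fell. Siglech and Irf8 chose the cells, and their levels are a description only. Siglech averaged 1246 ± 208 CPM at 4 h against 1835 ± 111 CPM, and Irf8 averaged 893 ± 155 against 1498 ± 361 CPM (SD, n = 4 libraries each). Tyrobp, the adapter that carries the signal of Siglech, fell by 0.69 (edgeR adjusted p = 0.0194). Flt3, Runx2 and Hs3st3a1 had adjusted p of 0.421, 0.476 and 0.157 in edgeR.

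Immediate-early genes, which are switched on within minutes of a stimulus, numbered 27 tested, of which 8 rose and 0 fell at 4 h, with a median log2 change of 0.32. Nfkbia, the inhibitor that NF-kB induces against itself, stood at 260 (TO 2d 0h), 316 (TO 4d 24h), 520.5 (TOE 2d 24h) and 68.6 CPM (TOE 4d 24h), and at 1181 and 1002 CPM in TO and 999 and 909 CPM in TOE at 4 h on days 2 and 4. The lowest 4 h library lay above the highest of the others, and Nfkbia rose by 1.84 ± 0.37 (edgeR adjusted p = 0.0157, 0.0706 at most with a library left out). Fosl2, a subunit of AP-1, averaged 106 ± 35.3 CPM at 4 h against 18.9 ± 8.62 CPM. It rose by 2.30 ± 0.33 (edgeR adjusted p = 0.00388, 0.0274 at most). The nuclear receptor genes Nr4a1 (1.53) and Nr4a2 (1.09), Maff (1.08) and Csrnp1 (0.83) rose too. The remaining 2 of the 8, Fosl1 and Ier3, reached the low-count minimum at 4 h only, with 65 UMIs at 4 h against 13 for Fosl1 and 105 against 28 for Ier3. In the neutrophil gate, Nfkbia went from 1042 to 2129 CPM and Fosl2 from 140 to 254 CPM at 4 h. Fos itself stood at 592 ± 249.1 CPM at 4 h against 486 ± 284 CPM, with an edgeR adjusted p of 0.657.

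Of 28 genes of the endosomal Toll-like receptor pathway tested, 3 rose and 1 fell at 4 h (of all genes, 4.92% and 3.37%), with a median of -0.10. Among them, Nfkb1, the p50 precursor, rose by 0.82 and the Tec kinase gene Btk by 1.18. Their edgeR adjusted p were 0.0484 and 0.0329, and each went above 0.05 with at least 1 library left out, reaching 0.160 and 0.150. Btk held 42 of 750104 UMIs in TO 2d 4h against 24 of 262419 in TOE 4d 24h, so its groups overlapped. In 1 cell lay 73 of its 210 UMIs in TO 4d 4h, 41 of 129 in TOE 4d 4h and 28 of 65 in TOE 2d 4h. Socs1, which brakes cytokine receptor signalling, rose by 0.99 (edgeR adjusted p = 0.0466). Of 17 interferon-stimulated genes tested, 0 passed in either direction, with a median of -0.37 and 2 of 17 higher at 4 h.

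Of 19 heat shock chaperone genes tested, 4 rose and 0 fell at 4 h, with a median log2 change of 0.51. Hspa1b, an inducible HSP70, stood at 8.32 (TO 2d 0h), 29.8 (TO 4d 24h), 43.6 (TOE 2d 24h) and 34.3 CPM (TOE 4d 24h). At 4 h it stood at 108 (TO) and 125 CPM (TOE) on day 2, and at 830.5 (TO) and 693 CPM (TOE) on day 4. All 4 h libraries were above the others, and the 2 of day 4 were above the 2 of day 2, in both treatment groups. Hspa1b rose by 3.42 ± 0.48 (edgeR adjusted p = 0.00388, 0.0255 at most with a library left out), and it went from 244 to 573 CPM in the neutrophil gate. Hspa1a, a near-identical copy whose reads may be split with Hspa1b, rose by 1.45, Hsph1, an HSP110 exchange factor, by 1.47 and Bag3, a co-chaperone of HSP70, by 2.26. Hspa1a in TO 2d 4h, at 192 CPM, lay below TO 2d 0h (208), TO 4d 24h (472) and TOE 4d 24h (583 CPM). Hsph1 held 435 of 750104 UMIs in TO 2d 4h, 206 of them in 1 cell, against 493 of 262419 in TOE 4d 24h. The whole list summed to 5303 to 14750 CPM at 4 h and 5149 to 9014 CPM otherwise, so the groups overlapped. Over the day comparison the same list had a median of 0.67, with 18 of 19 genes higher on day 4 and 0 passing in edgeR. DESeq2 called Hspa1a (1.82) and Dnajb1 (1.29) for the day. Hspa1b (2.62) passed for the day in edgeR with TOE 2d 24h left out.

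**Figure D5:**
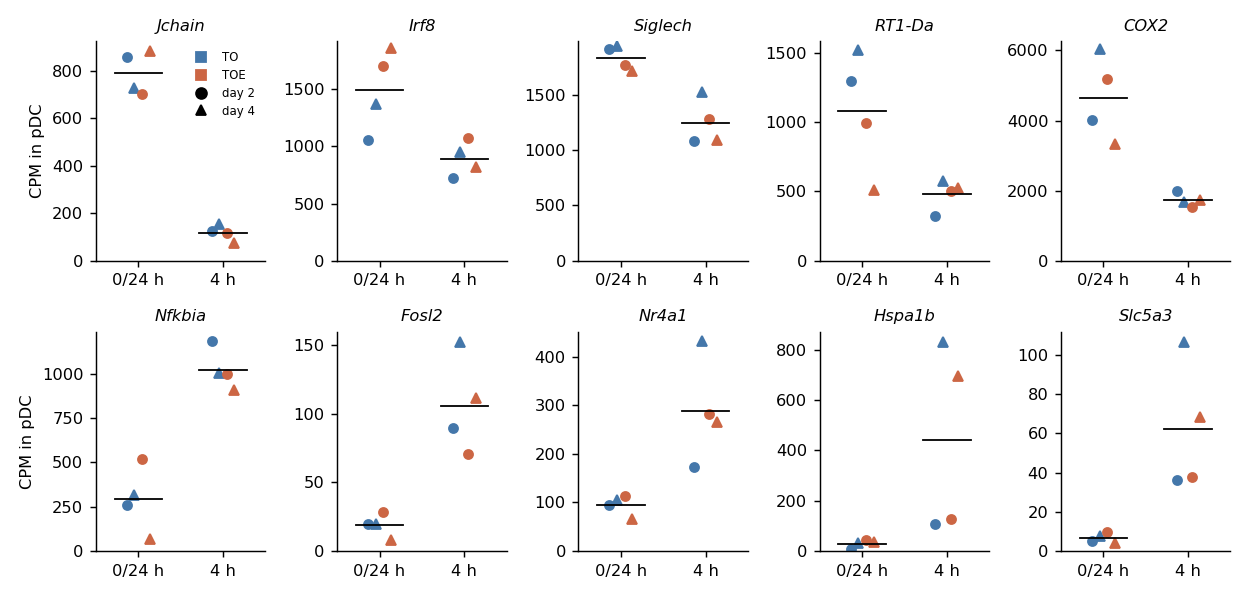
Level (CPM) of named genes in the summed pDCs of each library, 0 h and 24 h libraries on the left of each panel and 4 h libraries on the right, with colour for TO and TOE, circles for day 2, triangles for day 4 and lines at the means. Jchain, at 76.5 to 153 CPM in the 4 h libraries and 702 to 884 CPM in the others, and Nfkbia show groups that do not overlap.

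The panels of single genes show the library values behind these calls. The sequences 250 bases upstream of the start site are shown for 3 of the genes, because the promoters of chaperone genes are known to carry heat shock elements and those of NF-kB targets kB sites. They are from the RefSeq promoter table of build GRCr8, 5′ to 3′ on the gene's strand, in lower case with the matches in capitals. Hsph1 lies at chr12:10427118-10427367 on the + strand and Bag3 at chr1:192533210-192533459 on the + strand, both with matches of GAANNTTC or TTCNNGAA in capitals, some of which overlap. Nfkbia lies at chr6:78597073-78597322 on the - strand, with matches of GGG and CC with 5 bases between them, or of the reverse complement GG and CCC, in capitals.
Hsph1: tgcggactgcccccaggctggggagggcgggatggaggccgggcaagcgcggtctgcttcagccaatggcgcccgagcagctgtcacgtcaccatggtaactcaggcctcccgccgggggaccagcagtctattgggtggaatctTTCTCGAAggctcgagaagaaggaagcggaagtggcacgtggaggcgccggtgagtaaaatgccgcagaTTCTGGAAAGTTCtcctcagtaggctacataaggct
Bag3: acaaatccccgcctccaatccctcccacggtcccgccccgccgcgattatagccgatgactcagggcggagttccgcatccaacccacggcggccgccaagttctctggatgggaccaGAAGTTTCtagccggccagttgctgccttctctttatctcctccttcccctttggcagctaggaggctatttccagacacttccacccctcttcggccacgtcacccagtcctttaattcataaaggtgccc
Nfkbia: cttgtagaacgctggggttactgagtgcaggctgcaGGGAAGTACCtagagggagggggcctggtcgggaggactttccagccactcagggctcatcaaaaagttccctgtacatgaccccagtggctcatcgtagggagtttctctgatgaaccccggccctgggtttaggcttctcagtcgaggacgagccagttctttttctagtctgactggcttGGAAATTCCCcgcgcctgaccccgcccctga

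The heat shock motif matched 3 times in Hsph1 and 1 time in Bag3. It was present in 13.6% of all 33469 promoters of this length, in 9.92% of the 7342 promoters of tested genes, in 10 of the 15 chaperone promoters found in the table and in 2 of the 3 that belonged to genes that rose. Those 2 were Hsph1 and Bag3. No match was counted for Hspa1a or Hspa1b, which also rose. The kB motif matched 2 times in Nfkbia and was present in 42.3% of all promoters, in 60.2% of those of tested genes, in 14 of 20 immediate-early promoters found in the table and in 6 of the 6 that belonged to genes that rose. Fosl1 was among those 6 and reached the low-count minimum at 4 h only, so it had to differ to be tested. Ier3 and Csrnp1, which also rose, were not among the promoters counted. A match is a string of letters and not a measured binding site.

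Some genes of protein export and respiration fell at 4 h. Of 40 secretory pathway genes tested, 7 fell and 0 rose, with a median log2 change of -0.25. They were the signal peptidase subunits Spcs1, Spcs2 and Spcs3, the signal recognition particle gene Srp14, the disulfide isomerase gene Pdia6, the oligosaccharyltransferase gene Ostc and Xbp1, the transcription factor that drives secretory expansion. Xbp1 averaged 102 ± 13.4 CPM at 4 h against 182 ± 40.3 CPM and fell by 0.86 ± 0.20 (edgeR adjusted p = 0.0302, 0.141 at most with a library left out). Of the 15 mitochondrially encoded genes, 6 fell and 0 rose, with a median of -0.62. COX2 averaged 1742 ± 190 against 4642 ± 1205 CPM and fell by 1.41 ± 0.19 (edgeR adjusted p = 0.00344), while the remaining cells went from 4693 to 1822 CPM. Of 38 nuclear-encoded respiratory chain genes tested, 7 fell and Ndufa6, a complex I subunit, rose by 0.87. Of 8 class II genes tested, RT1-Da fell by 1.13 ± 0.29 (edgeR adjusted p = 0.0381, 0.164 at most), with a list median of -0.63.

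The largest rises at 4 h included Slc5a3, a sodium and myo-inositol cotransporter, at 62.1 ± 33.3 CPM against 6.45 ± 2.56 CPM, and it went from 3.79 to 19.45 CPM in the neutrophil gate. Fcrl5, an Fc receptor-like gene, held 66 UMIs at 4 h and 2 UMIs at 0 h and 24 h, a ratio of 27.0 in pooled level with an exact counting interval of 7.18 to 227, and 12 of its 22 UMIs in TOE 4d 4h lay in 1 cell. Nrg2, a neuregulin, held 91 and 3 UMIs, a ratio of 24.8 (8.22 to 122). Slc5a3, Fcrl5, Nrg2 and Hpse2 entered the test only through the 4 h libraries. Hpse2 had no UMI in the 0 h and 24 h libraries and was at least 16.9-fold higher at 4 h, counted against a floor of 3 UMIs over those libraries together, though its UMIs lay in 11 cells. The glucocorticoid-responsive list had 3 of 14 genes up and 1 down, among them Errfi1, a feedback inhibitor of EGF receptor signalling, which rose by 1.32, and Txnip, which fell by 1.15. Id2, which opposes E proteins such as Tcf4, averaged 71.9 ± 8.21 against 23.5 ± 18.6 CPM and rose by 1.61 ± 0.40 (edgeR adjusted p = 0.0355, 0.134 at most).

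Several of the largest falls were in genes that other cells express. Bglap, osteocalcin of osteoblasts, averaged 9.46 ± 5.80 CPM in the pDCs at 4 h against 129 ± 40.0 CPM, and it entered the test only through the 0 h and 24 h libraries. Over the same hours, Bglap went from 1156 to 205 CPM in the remaining cells and from 334 to 98.4 CPM in neutrophils. Reln held 113 UMIs in the pDCs at 0 h and 24 h and 5 UMIs at 4 h, and went from 58.5 to 12.4 CPM in the remaining cells, and RGD1561636 fell by 3.08 and went from 197 to 22.9 CPM there. Of the 12 markers of mesenchymal and endothelial cells, 6 were tested and 3 fell (Col1a1, Col1a2 and Sparc). That list summed to 187 to 337 CPM in the 4 h pDCs and 403 to 853 CPM in the others, with 0 of its markers at 0. Plasma cell markers, Jchain included, summed to 231 to 398 CPM at 4 h and 850 to 1018 CPM otherwise. Neutrophil markers summed to 1371 to 9110 CPM at 4 h and 1544 to 3712 CPM otherwise, with Ltf at 0. Erythroid markers summed to 592 to 3622 CPM and 244 to 1526 CPM. Markers of cDCs, of which Wdfy4 and Id2 rose among 6 tested, summed to 776.5 to 946 CPM at 4 h and 431 to 721 CPM otherwise, with 0 of 15 at 0. Mast cell and basophil markers summed to 15.0 to 38.7 CPM and 57.2 to 68.2 CPM, with Fcer1a, Hdc and Tpsb2 at 0, and T and NK cell markers to 275 to 445 CPM and 466 to 621 CPM, with Gzma and Prf1 at 0. The part of RNA from other cells in the pDC results was not tested. Cd300c, an immune receptor gene, entered the test only through the 0 h and 24 h libraries, like Bglap and Reln. In the pDCs it stood at 63.7 ± 24.2 CPM in those libraries and at 8.01 ± 8.56 CPM at 4 h. It stood at 0.579 CPM in the remaining cells and 0.124 CPM in neutrophils at 0 h and 24 h. Pira2, another receptor gene, stood at 119 ± 40.5 CPM and fell by 3.00, and in neutrophils it went from 174.5 to 86.0 CPM.

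Whether these changes were particular to pDCs was tested as the difference of the hour effect between the pDCs and each gate within libraries. Against the cDC gate, 6 of 7650 genes differed (0.0784%), with 602 at an unadjusted p under 0.05, and against the B lineage gate 63 of 7978 (0.79%). Both counts include genes that reached the low-count minimum in the pDCs only at the hours where they were higher. Against the cDC gate these included Rbfox2 and Arhgap31. Against the B lineage gate they included those 2 with Nrg2, Ier3, Cck, Fbxl7, Spire1, Osbpl3, MGC105649, Reln, Cdc42bpb and LOC108351932. Counts without such genes were not made. Rbfox2, a splicing regulator, went from 9.93 to 61.8 CPM in the pDCs and from 24.8 to 9.31 CPM in the cDC gate, a fitted difference of 4.03 ± 0.50 on the log2 scale, for a gene that reached the low-count minimum in the pDCs through the 4 h libraries only. Rasal2, a Ras GTPase-activating protein gene, went from 15.7 to 83.4 CPM and from 89.6 to 125 CPM, a difference of 2.07 ± 0.28 (edgeR adjusted p = 0.0139). Atf3 held at 155 and 140 CPM in the pDCs, while it was 680 and 264 CPM in the cDC gate. Against the B lineage gate, Hspa1b rose more by 3.26 ± 0.26 (edgeR adjusted p = 0.000267) and Fosl2 by 2.16 ± 0.27 (edgeR adjusted p = 0.00378). Against the cDC gate, these genes differed by 2.32 and 1.71 with edgeR adjusted p of 0.114 and 0.0836. The cDC gate held 21 to 86 cells per library, which limits that comparison.

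Treatment was then described within the 3 matched collections, where each side was 1 library and no test was made. Past 2-fold in either direction were 725 of 7233 genes for 2d 4h (10%), 473 of 7321 (6.46%) for 4d 4h, and 1309 of 6136 (21.3%) for the collection 4d 24h, whose TOE library held 23 pDCs. At 2d 4h the median log2 ratio was 0.11 over all genes and 0.72 over 15 interferon-stimulated genes, 4 of them past 2-fold and higher in TOE. In the same collection the medians were 0.62 for heat shock chaperones, 0.53 for class II genes, 0.61 for T and NK cell markers and 0.56 for B lineage markers, against -2.97 for erythroid markers (8 of 9 past 2-fold and lower) and -1.47 for monocyte and macrophage markers. The part of RNA from other cells in these ratios was not tested. Ifi27, a mitochondrial product of interferon signalling, stood at 36.0 CPM in TO (exact interval 23.7 to 52.4) and 204 CPM in TOE (170 to 242) there. At 4d 4h the median over 14 interferon-stimulated genes was -0.07 beside 0.02 for all genes, and Ifi27 stood at 181 CPM in TO and 261 CPM in TOE. At 4d 24h it stood at 95.3 and 438 CPM, and the median over 14 interferon-stimulated genes was 0.23, with 4 of them past 2-fold and higher in TOE. All other cells moved the same way, with Ifi27 at 25.5 CPM in TO and 57.8 CPM in TOE at 2d 4h, 86.3 and 106 CPM at 4d 4h, and 44.95 and 60.8 CPM at 4d 24h. In the pDCs Ifi27 was higher in TOE in all 3 collections, by a fitted log2 difference of 1.25 ± 0.32 that did not pass the correction (edgeR adjusted p = 0.960).

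Several other large ratios lay largely in 1 cell. Fhad1 at 2d 4h was 0 UMIs in TO and 86 UMIs in TOE, all in 1 cell, and Galntl6 at 4d 4h was 84 UMIs in TO, all in 1 cell, and 0 in TOE. The granule genes Ngp and Camp at 4d 4h stood at 1409 and 916 CPM in TO against 141 and 118 CPM in TOE, with 555 of 1108 and 386 of 720 TO UMIs in 1 cell. Of the 1346 Hba-a1 UMIs of TO 2d 4h, 1114 lay in 1 cell. RT1-A3, a class I gene of a multigene family whose reads may be shared between copies, stood at 8.90 CPM in TO and 83.1 CPM in TOE at 4d 4h, with its 50 TOE UMIs in 23 cells. In all other cells RT1-A3 stood at 89.2 CPM in TO and 207 CPM in TOE at 4d 4h. Spread over more cells, the kinase gene Pim1 at 4d 24h held 59 UMIs over 26 TO cells and 0 UMIs in the 23 TOE cells. All other cells moved the same way, with Pim1 at 91.4 CPM in TO and 25.9 CPM in TOE at 4d 24h. In that collection 8 of 8 class II genes were past 2-fold and lower in TOE, with a median of -1.34. In the same collection, neutrophil markers were higher in TOE for 9 of 9 genes, 6 of them past 2-fold, with a median of 1.32, and erythroid markers had a median of -5.56 over 5 genes. Their part in the class II values was not tested. In the other 2 collections 0 class II genes were past 2-fold. Class II genes were higher in TOE for 6 of 7 genes at 2d 4h (median 0.53) and for 6 of 8 genes at 4d 4h (median 0.15). At 4d 4h the class II list summed to 2981 CPM in TO and 3064 CPM in TOE.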

How the data were processed

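Single cells of 8 libraries were measured by 10x 3′ sequencing. Per the labels, the authors' counts were made with Cell Ranger 9.0.0 (the submitters' notes list the builds mRatBN7.2 and GRCh38 without saying which was used) and were deposited as UMI count matrices, 1 per library. The cell filter asked for 200 or more genes and no more than 20% of UMIs from mitochondrial genes, and removed 2479 of 116711 barcodes. Doublets were scored with Scrublet (scanpy 1.11.5) and not removed. Member UMIs were summed per library and tested with edgeR 4.0.16 (quasi-likelihood, TMM, filterByExpr, additive in treatment, hour and day, Benjamini-Hochberg over all genes tested), with DESeq2 1.42.0 as an alternative. Since conditions served as replicates, p-values measure the spread between libraries, whether biological or technical. The hour effect was compared with that of 2 gates in a fit with the library as block. Shares were compared by exact permutation over libraries, and the intervals of shares are Clopper-Pearson. CPM ratios in matched collections added 0.5 UMIs to each side and needed 20 UMIs over both. The edgeR script was tested on simulated counts. Genes named came from the markers and lists, the first 20 by ratio, the 10 largest rises and falls, and the 5 largest ratios each way per matched collection (50 UMIs or more); others were chosen after their values were seen, as was the neutrophil gate. The cells, lists and tests were chosen with earlier results of these data known. Alternatives varied the cell filter, the Siglech and Cd79a limits, doublets, depth, normalization, the low-count filter and the libraries.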

Additional observations from a re-analysis of the deposited data

Results flagged for a closer look

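The change between 4 h and the other hours differed in size between the pDCs and the B lineage gate for 63 genes and between the pDCs and the cDC gate for 6 genes, by the edgeR test of the difference itself. Both counts include genes that reached the low-count minimum in the pDCs only at the hours where they were higher. Values below are differences of log2 changes, pDCs minus gate.

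Against the cDC gate, the differences were 4.03 for Rbfox2, 2.07 for Rasal2, 1.48 for Atf3, 2.1 for Arhgap31, 1.67 for Cd7 and -6.15 for Hspb1. Of the 118 Hspb1 UMIs in pDCs, 78 lay in 1 cell of TO 4d 24h. Rbfox2, Rasal2 and Arhgap31 were higher at 4 h in the pDCs, whereas Atf3 in the cDC gate stood at 264 CPM at 4 h against 680 CPM. Rbfox2 and Arhgap31 reached the low-count minimum in the pDCs through the 4 h libraries only, so their differences are a description. With putative doublets removed, 22 genes differed in place of 6.

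Against the B lineage gate, the differences for chaperone and immediate-early genes on the lists were 3.26 for Hspa1b, 2.13 for Bag3, -3.24 for Hspb1, 2.16 for Fosl2, 1.16 for Fosb, 1.88 for Atf3, 1.77 for Ier3, 1.25 for Klf4 and 1.06 for Nfkbia. Id2 differed by 1.62, Nrg2 by 4.14 and Vcan, a gene of the monocyte and macrophage marker list, by 2.15. In the pDCs, Rbfox2, Arhgap31, Ier3, Nrg2, Reln and Cdc42bpb reached the low-count minimum only at the hours where they were higher. These genes had to differ in the pDCs to be tested, so their differences are a description only. Atf3 itself stood at 155 CPM in the pDCs at 0 h and 24 h and at 140 CPM at 4 h. Reln differed by -2.72, Cdc42bpb by -2.81 and Fcrla by -0.86.

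A second group consisted of genes that pDCs or cDCs express far above B lineage cells. It held Flt3 (0.9), Elovl7 (1.53), Nap1l5 (1.59), Peli2 (1.05), Cd7 (1.97), Cadm1 (1.74) and Cst3 (0.93). In the pDCs these genes had hour changes between -0.07 and 0.44 on the log2 scale, none of which passed. In the B lineage gate Flt3 went from 14 to 9.3 CPM, Cd7 from 4.14 to 1.55 CPM and Elovl7 from 1.47 to 0.748 CPM at 4 h, against 582, 228 and 245 CPM in the pDCs at 4 h. The part of RNA from other cells in these low levels was not tested.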

How the results depend on the processing

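No paired analysis was possible because each condition was 1 library, so that no replicate number pairs animals; a block for collections of the same day and hour, from different animals, left 0 of 7735 genes passing between TOE and TO. Of the recomputed values, 111 stayed within the range allowed for their kind, 21 moved beyond it and 7 differences changed sign. A ratio of shares was held to the interval of the reported ratio, so the 111 include the 2d 4h ratio of 1.07 with thinned cells, on the other side of 1, and 4d 4h ratios whose upper limit passed 1, at 1.03 (Siglech at least 1), 1.06 (thinned) and 1.08 (no Cd79a limit). The hour difference in share was -0.118 with cells thinned to 2000 UMIs and -0.0436 without the Cd79a limit (an alternative added after seeing the data), and the day difference was 0.0328 thinned and -0.0574 to 0.0532 with a library left out. The 2d 4h ratio of shares was 1.40 (0.970 to 2.03) among cells outside the B lineage gate. Genes called between TOE and TO numbered 26 of 18117 without the low-count filter and 1 (Gja1) without the Cd79a limit. For the hour they numbered 440 with DESeq2 (402 of the 662 genes among them) and 1066 without the low-count filter. They numbered 1246 without the Cd79a limit (550 of the 662 among them). With a library left out they numbered 102 to 1216, and none of the 662 was called with the opposite sign. For the day they numbered 5 with DESeq2, 64 without the filter and 0 to 2 with a library left out. Without the Cd79a limit, 3 of the 662 hour genes had the opposite sign, counted whether or not they passed there. With at least 50 UMIs over a matched collection, 5.22% of genes were past 2-fold at 2d 4h and 3.00% at 4d 4h. Against the cDC gate, 22 genes differed without putative doublets. The cause of these shifts was not tested. On counts simulated with the same spread for every gene, 41.8% of 2-fold changes between TOE and TO were called.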

Other observations

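As a list, chemokine receptor and adhesion genes summed to 2307 CPM in the pDCs (1799 to 2826 CPM by library) and 1878 CPM in all other cells. Cxcr3, the receptor that draws lymphocytes and pDCs to inflamed tissue, stood at 14.1 CPM in the pDCs, 8.25 CPM in the cDC gate and 0.201 CPM in the B lineage gate. Cxcr4, the receptor that holds cells in the marrow, stood at 278 CPM in the pDCs against 315 CPM in all other cells. Of 17 genes of this list tested, 0 passed for the hour, with a median log2 change of 0.12. Among other genes shared with B lineage cells, the transcription factor gene Bcl11a stood at 691 CPM in the pDCs against 218 CPM in the B lineage gate, the adaptor gene Blnk at 1109 against 743 CPM and the interleukin-7 receptor gene Il7r at 134 against 66.2 CPM.

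Of 25 cell cycle genes tested, 0 passed for the hour, with a median of -0.62 and 3 of 25 higher at 4 h. Of 10 circadian clock genes tested, Nfil3, a basic leucine zipper factor that dendritic cells also use, rose by 1.42 at 4 h and 0 fell. DESeq2 called 5 genes for the day that edgeR did not, Hspa1a (1.82), Dnajb1 (1.29), LOC120096270 (1.57), Pde10a (-1.82) and Naip6 (1.87). Between TOE and TO the smallest unadjusted p in edgeR belonged to Scrn1, at -1.26 ± 0.28 on the log2 scale, and Hmgcs1, of cholesterol synthesis, at 1.17 ± 0.26, both with an edgeR adjusted p of 0.960.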
